A study of Homo sapiens with 12 samples.

Results

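The comparison described here is between A549 cells with a knockout of NFE2L1, from the line labelled KO2, and the control line, both given vehicle. A549 is an established human lung adenocarcinoma cell line. The 4 libraries are KO2 R1 and KO2 R2, and for the control line, labelled Control1, a library without a number and one numbered R2. They are 4 of 12 RNA sequencing libraries, which also cover a second knockout line (KO1) and all 3 lines after bortezomib, a proteasome inhibitor, at 200 nM for 4 h. All groups are A549 cells in the same culture medium, and the vehicle was DMSO. Whether a line is 1 clone, how NFE2L1 was disrupted and whether the libraries of a group came from separate cultures are not given in the sources used here. The p-values therefore measure the spread between these libraries, which may be technical. R2 was set against R2, and R1 against the unnumbered control library. Expression is given as FPKM, read counts scaled to gene length and library depth. The test took in 12194 of 58676 genes, those whose FPKM averaged 1 or more across the 12 libraries.

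NFE2L1, also called NRF1, is a transcription factor of the cap'n'collar family. It is made at the membrane of the endoplasmic reticulum, is drawn out of it by the VCP segregase, deglycosylated by NGLY1 and cut by the protease DDI2, and is otherwise degraded by the proteasome. When the proteasome is inhibited, the cut form enters the nucleus, pairs with small MAF proteins and raises the genes of proteasome subunits through antioxidant response elements. A549 cells carry an inactivating KEAP1 mutation, so that the related factor NRF2 (NFE2L2), which binds the same elements, is active in them without stress.

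Between 18701329 and 23819258 reads were assigned to genes in the 4 libraries. The libraries stood apart by replicate more than by line. The Pearson correlation of log2(FPKM + 1) over the genes tested was 0.967 between the unnumbered control and KO2 R1 and 0.945 between the R2 libraries. Within the control line it was 0.896, and within KO2 it was 0.895. The share of reads from mitochondrially encoded genes was 6.64% in the unnumbered control, 5.79% in KO2 R1, 12.3% in control R2 and 14.7% in KO2 R2. For this reason 2 fits are given throughout: one with no replicate term, and one with the replicate as a block, here called the paired fit. All 11 markers of A549 on the list used here had an FPKM of at least 1 in each of the 4 libraries. No endothelial marker of 7 and no muscle or neural marker of 9 reached 1, and of the fibroblast and immune markers only COL1A1, CD14 and ITGAM did in any of the 4.

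NFE2L1 itself (ENSG00000082641, chr17:48048329-48061487) had an FPKM of 72.7 in the unnumbered control, 151 in control R2, 18.6 in KO2 R1 and 33.6 in KO2 R2. Both KO2 libraries lay below both control libraries, at 25.6% and 22.3% of the control library they were paired with. The log2 fold change was -2.02, with a limma adjusted p of 0.371 in the fit without pairing and 0.000173 in the paired fit. A gene of the opposite strand overlaps NFE2L1, and whether the counting used strand is not given in the sources used here. In RNA from bulk cultures, fewer cells that express a gene and less of its RNA per cell cannot be told apart. The 17 other genes tested within 500 kb of NFE2L1 had log2 fold changes from -0.17 to 0.54 with a median of 0.05, and none was called in either fit.

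In the fit without pairing, limma called 28 of 12194 genes at a Benjamini-Hochberg adjusted p under 0.05, which is 0.23% of the genes tested. Of these, 16 were higher (0.131%) and 12 lower (0.0984%) in KO2. The paired fit called 596 genes (4.89%), 333 of them higher (2.73%) and 263 lower (2.16%), and all 28 were among them. The median size of a called change in the paired fit was 0.99 on the log2 scale for the higher genes and 0.97 for the lower ones, and 161 and 125 of them changed by at least 1. Over all genes tested, 2058 (16.9%) had KO2 libraries that did not overlap the control libraries, and 7684 (63%) moved the same way in both pairs. The counts depended on single libraries. With 1 left out, the fit without pairing called 2 genes (without control R2), 3 (without the unnumbered control or KO2 R2) or 6 (without KO2 R1). The paired fit called 154 without KO2 R2, 274 without control R2, 282 without KO2 R1 and 721 without the unnumbered control.

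**Figure D1:**
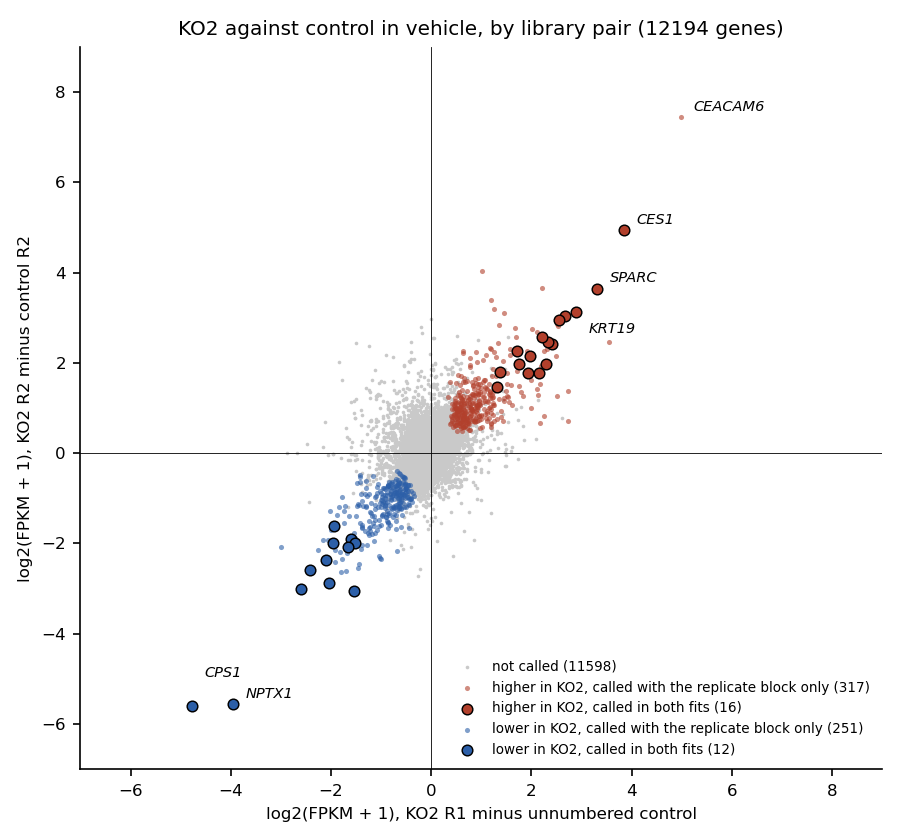
Difference of log2(FPKM + 1) between KO2 and control in vehicle for the 12194 genes tested, with R1 against the unnumbered control on the x axis and R2 against R2 on the y axis; colours mark the calls. The 28 outlined genes, called in both fits, lie at the ends of the cloud, with CPS1 and NPTX1 lowest and CES1 and SPARC highest among them.

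The shift was not spread evenly over the genome. Genes of chromosome 12 were higher in KO2 along its whole length and genes of chromosome 2 lower. The median log2 fold change was 0.39 over the 680 genes tested on chromosome 12 (0.31 in the first pair and 0.46 in the R2 pair) and -0.23 over the 769 on chromosome 2 (-0.28 and -0.17). Over the 10745 genes on the other chromosomes it was 0.06, and the other autosomes and chromosome X had medians between 0.02 and 0.13. On chromosome 12, 75.3% of genes were higher in both pairs, and on chromosome 2, 64.6% were lower in both, against 38.2% and 23.01% on the other chromosomes. The paired fit called 82 genes of chromosome 12 higher and 5 lower, or 12.8% of its genes. On chromosome 2 it called 13 higher and 51 lower, or 8.32%. Elsewhere it called 238 higher and 207 lower, or 4.14%.

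The chromosomes were then divided into windows of 10 Mb, a step chosen after the chromosome medians had been seen. In all, 217 windows held at least 20 genes tested. Stretches of chromosomes 2 and 12 with fewer genes per window were not assessed. The medians of the 11 windows of chromosome 12 ran from 0.32 to 0.45, and those of the 19 windows of chromosome 2 from -0.32 to -0.09. The 187 windows elsewhere ran from -0.07 to 0.21, so that none of them reached the range of either chromosome. On chromosome 12 the size was similar at low and high expression, with a median of 0.39 for genes with a mean FPKM under 10 and 0.41 for those at 10 or more. On chromosome 2 it was -0.19 and -0.30. The same appeared in the raw share of reads. Chromosome 12 took 6.91% of the reads from nuclear genes in the unnumbered control and 6.26% in control R2, but 8.93% in KO2 R1 and 8.47% in KO2 R2. Chromosome 2 took 7.68% and 7.62% in the control libraries and 6.04% and 5.90% in those of KO2.

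The values of the other libraries stand beside these. In the 4 bortezomib libraries of the same lines, the median difference of KO2 from control was 0.35 on chromosome 12 and -0.21 on chromosome 2. KO1 differed from the same control libraries in vehicle by a median of 0.37 on chromosome 12 and -0.36 on chromosome 2. The comparison of KO2 with KO1, which uses no control library, gave -0.01 on chromosome 12 and 0.14 on chromosome 2. Chromosome 12 took 9.03% and 8.66% of nuclear reads in the KO1 vehicle libraries and chromosome 2 took 5.77% and 5.56%. DNA was not measured in these files. Of the 28 genes called in both fits, 25 lie outside chromosomes 2 and 12 (15 higher and 10 lower). The exceptions are CPS1, ANTXR1 and UGT1A9 on chromosome 2.

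**Figure D2:**
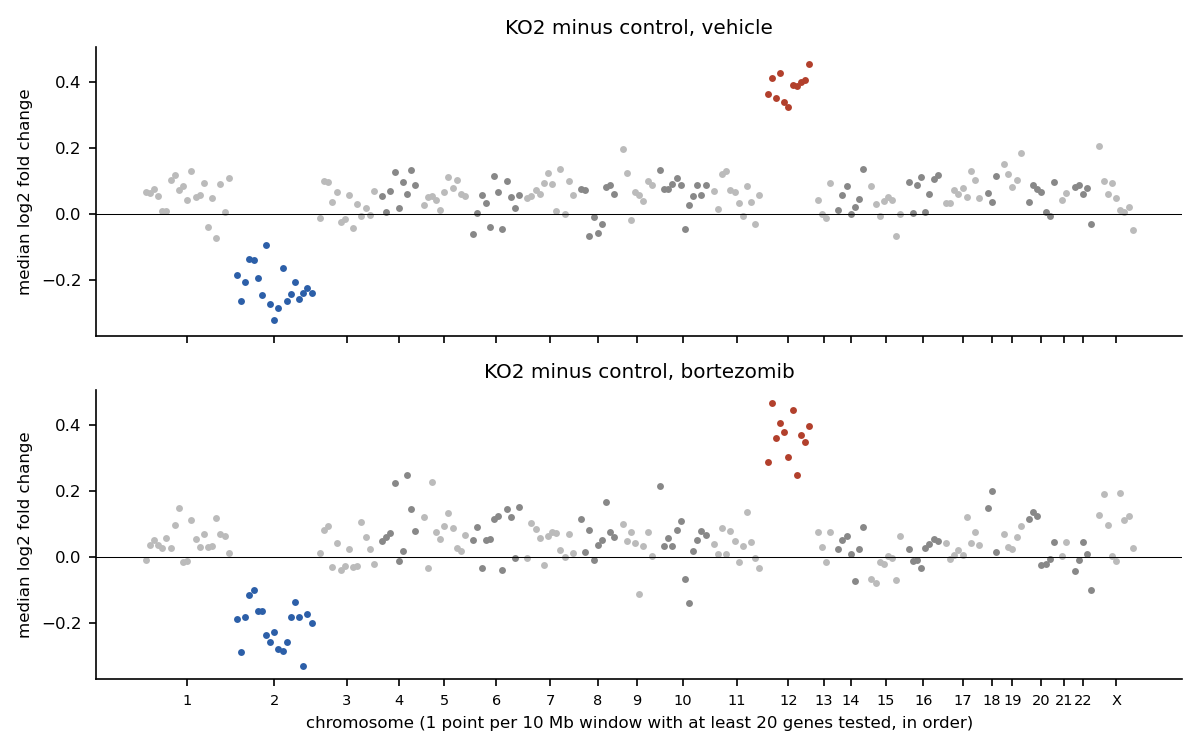
Median log2 fold change of KO2 against control in each 10 Mb window with at least 20 genes tested, in chromosome order, in vehicle (top) and bortezomib (bottom). In vehicle the 11 windows of chromosome 12 (red) all lie at 0.32 or above and the 19 of chromosome 2 (blue) all lie below 0, outside the range of the grey windows.

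Among the genes that fell, CPS1 had the largest change. CPS1 (ENSG00000021826, chr2:210477682-210679107) is the mitochondrial carbamoyl phosphate synthetase that starts the urea cycle. Its FPKM was 38.2 in the unnumbered control and 80.4 in control R2, against 0.44 and 0.67 in KO2 R1 and R2. The KO2 libraries did not overlap the control libraries, which was a condition for naming genes from the fit without pairing. The log2 fold change was -5.19 (SE 0.38, limma adjusted p 0.000679), and in the paired fit the SE was 0.27 (limma adjusted p 2.18e-05). KO1 had 0.11 and 0.041. The gene lies on chromosome 2, whose median was -0.23.

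NPTX1 (ENSG00000171246), which encodes a secreted pentraxin of synapses, was at 122 and 189 FPKM in the control libraries and at 6.91 and 3.02 in KO2. The log2 fold change was -4.76 (limma adjusted p 0.00347, paired 8.82e-05). GPC6, a glypican that carries heparan sulfate at the cell surface, went from 5.84 and 9.85 to 0.14 and 0.35. It was the only gene that was at 5 FPKM or more in both control libraries and under 0.5 in both of KO2. Its log2 fold change was -2.80 (limma adjusted p 0.0135, paired 4.03e-05).

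Another 9 genes fell in both fits. SMOC1, a secreted matricellular protein, was at 7.68 and 12.1 FPKM in the control libraries and 0.62 and 1.19 in KO2. ANTXR1, a surface receptor for collagens and for anthrax toxin, was at 135 and 244 against 32.0 and 32.3. CDH4, the cadherin of retina and nerve, was at 13.8 and 25.9 against 4.11 and 2.26. WISP2, a matricellular protein of the CCN family, was at 11.02 and 12.04 against 1.79 and 1.52. All control values of these genes stood above all KO2 values, as the condition for naming them required.

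HTRA3, a secreted serine protease, fell from 6.11 and 5.44 FPKM to 0.82 and 0.63. The hormone STC1 fell from 6.84 and 8.72 to 1.48 and 1.31, and CHRDL2, a secreted antagonist of bone morphogenetic proteins, from 3.60 and 2.68 to 0.19 and 0.20. P4HA3, a subunit of the prolyl hydroxylase that matures collagen, fell from 17.4 and 17.3 to 5.37 and 3.63. GFRA1, the GDNF co-receptor, fell from 4.71 and 6.83 to 0.89 and 1.10. The limma adjusted p of these 9 genes was between 0.0261 and 0.0457 without pairing, with log2 fold changes from -2.504 (SMOC1) to -1.75 (GFRA1).

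Among the genes that rose in both fits, CES1 led. CES1 (ENSG00000198848) encodes a carboxylesterase of the endoplasmic reticulum that cleaves esters and many drugs. Its FPKM was 0.26 and 0.24 in the control libraries (18 and 13 reads) and 17.1 and 37.2 in KO2 R1 and R2. The log2 fold change was 4.40 (SE 0.41, limma adjusted p 0.00347; paired fit SE 0.27, adjusted p 4.03e-05). SPARC (ENSG00000113140), a matricellular protein that binds collagen, went from 1.76 and 1.47 to 26.6 and 29.9. Its log2 fold change was 3.48 (SE 0.24, limma adjusted p 0.000665; paired fit SE 0.16, adjusted p 1.18e-05), the smallest of the comparison in both fits.

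KRT19, a keratin of simple epithelia, went from 17.4 and 11.97 FPKM to 137 and 113 (log2 fold change 3.02, limma adjusted p 0.044). ADGRL2, an adhesion G protein-coupled receptor of the latrophilin type, went from 1.13 and 1.82 to 12.6 and 22.4 (2.86, limma adjusted p 0.012). EMB (embigin, a chaperone of monocarboxylate transporters) went from 0.088 and 0.37 to 5.35 and 9.61. PLCXD3 went from 0.48 and 0.14 to 6.48 and 5.25. CES1, EMB and PLCXD3 were the 3 genes under 0.5 FPKM in both control libraries and at 5 or more in both of KO2. The KO2 libraries of all 4 genes in this paragraph stood above the control libraries, as the condition for naming them required.

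The remaining rises called in both fits included 2 transcription factors of epithelia. SOX2, a factor of airway progenitor cells, went from 0.72 and 0.53 FPKM to 7.39 and 5.04, and EHF, an ETS factor of epithelial cells, from 0.60 and 0.56 to 3.17 and 4.45. SOX2 overlaps the gene SOX2-OT on the same strand, so the division of reads between them is uncertain. NID1, a nidogen that links laminin and collagen in basement membranes, went from 4.91 and 6.41 to 21.6 and 24.3. The cation channel TRPC6 went from 0.19 and 0.82 to 4.51 and 9.88, and ANXA13, an annexin of epithelia, from 0.77 and 0.44 to 4.80 and 5.85. BCHE (butyrylcholinesterase) was at 0.014 and 0.087 in the control libraries, the first of which is 1 read, and at 2.42 and 3.27 in KO2.

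The long noncoding RNA LINC01468 was at 0.36 and 0.55 FPKM in the control libraries and at 6.27 and 7.28 in KO2. C1orf116 was at 0.20 and 0.15 against 4.33 and 2.94. UGT1A9, a glucuronosyltransferase, was at 0.52 and 0.71 against 5.01 and 6.64. It shares its last exons with the other genes of the UGT1A locus on chromosome 2, so the division of its reads is uncertain. The sixteenth gene, C14orf105, is named only to complete the count, after its values were seen. The limma adjusted p of the genes that rose was between 0.000665 and 0.0457 for the 15 named by rule.

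**Figure D3:**
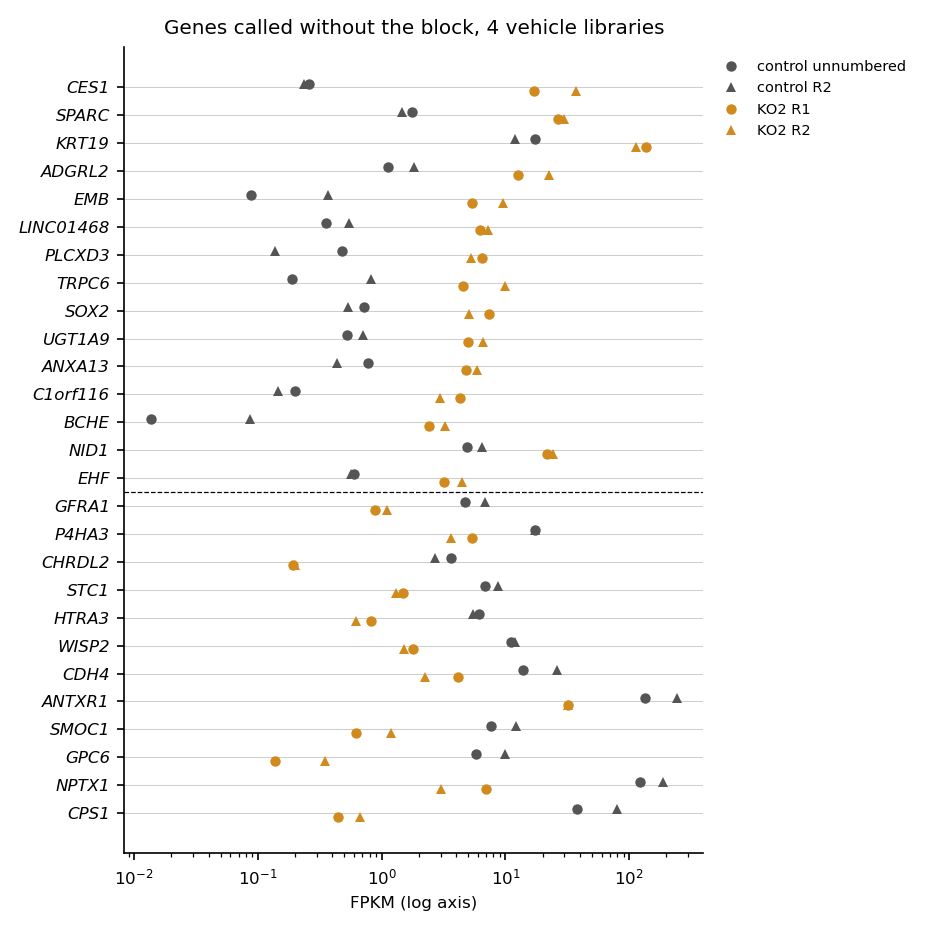
FPKM (log axis) in the 4 vehicle libraries of 27 of the 28 genes called in both fits, ordered by log2 fold change; circles are the unnumbered control and KO2 R1, triangles are R2. The orange KO2 points and the grey control points overlap in no row, which was a condition for naming these genes. It held for 16.9% of all genes tested. CES1 is at 0.24 to 0.26 in control against 17.1 to 37.2 in KO2, and CPS1 at 38.2 to 80.4 against 0.44 to 0.67.

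Other genes were called in the paired fit alone. CEACAM6, a glycosylphosphatidylinositol-anchored adhesion molecule of epithelia, had the largest rise of all genes tested. Its FPKM was 0.32 in the unnumbered control and 40.5 in KO2 R1, and 1.05 in control R2 and 355 in KO2 R2. The log2 fold change was 6.21 (paired fit SE 0.57, limma adjusted p 0.000267; 0.231 without pairing). The CEACAM genes are close paralogs, and how the counting divided reads among them is not known. KO1 was at 2.71 and 26.9 in vehicle, and KO2 exceeded KO1 by 3.58 (limma adjusted p 0.0113 in the paired fit).

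AGR2 and MUC5AC were also called higher in the paired fit. AGR2, a disulfide isomerase of mucin-secreting cells, was at 11.6 and 52.5 FPKM in the control libraries and at 70.9 and 385 in KO2. The lower KO2 value exceeded the higher control value. MUC5AC, a gel-forming airway mucin, was at 0.47 and 1.23 against 5.80 and 27.0. The limma adjusted p was 9.13e-05 for AGR2 and 0.00353 for MUC5AC with pairing, and 0.9999 and 0.716 without it. The pseudogene KB-1269D1.8 was also named by the rule for rises called with pairing. It was at 0.67 and 0.68 FPKM in the control libraries and at 2.36 and 26.7 in KO2 R1 and R2 (log2 fold change 2.53, paired limma adjusted p 0.0411).

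CNTN1 and DPYSL3 are known for axon growth. CNTN1, a contactin, was at 11.8 and 31.6 FPKM in the control libraries and at 69.9 and 170 in KO2 (log2 fold change 2.43, paired limma adjusted p 5.89e-05). It lies on chromosome 12, whose median was 0.39. DPYSL3, a collapsin response mediator, was at 0.78 and 0.65 against 19.9 and 8.07 (log2 fold change 3.01, paired limma adjusted p 0.000523).

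Pairing added 5 of the falls named by rule for their size, 3 of them genes of secreted products. IGFBP3, which binds insulin-like growth factors, was at 106 and 130 FPKM in the control libraries and at 12.4 and 29.9 in KO2 (log2 fold change -2.54, paired limma adjusted p 0.00162). The cytokine IL11 was at 17.1 and 27.1 against 4.22 and 3.56 (-2.21, paired limma adjusted p 0.00393). MFGE8, a milk fat globule protein that bridges dying cells to phagocytes, was at 65.4 and 124 against 18.3 and 23.5. SUSD2, a membrane protein, was at 16.5 and 37.2 against 3.63 and 6.23, and RTN4RL2, a relative of the Nogo receptor, at 10.2 and 19.6 against 1.52 and 4.39. None of the 5 had KO2 values that overlapped the control values, and without pairing their limma adjusted p was between 0.127 and 0.541. The libraries also did not overlap for 213 of the 263 genes called lower with pairing, and for 16.9% of all genes tested.

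GPX2 was the 1 gene called higher on the list of NRF2 targets. GPX2, a glutathione peroxidase of epithelia and a known NRF2 target, was at 30.5 and 26.3 FPKM in the control libraries and at 182 and 190 in KO2. The log2 fold change was 2.68 (paired limma adjusted p 0.00149; 0.145 without pairing). KO1 was at 36.5 and 49.1, and KO2 exceeded KO1 by 2.11 (paired limma adjusted p 0.0109). The core of the element, TGACNNNGC, was searched on both strands of the promoter windows of RefSeq (GRCh38.p14), which run from 250 bases before to 50 bases after the start site. The search found it in 13.6% of the 27305 windows of the table and in 15.5% of those of genes tested. It was in 16.4% (37 of 225) of the windows of genes called higher and 10.4% (19 of 182) of those called lower in the paired fit. For the NRF2 targets on the list it was 31.8% (7 of 22), and for the subunits of the 20S and 19S proteasome 23.1% (6 of 26). These shares are descriptions, and a match is not a bound site.

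The windows of 4 genes that moved and hold the core, which NFE2L1 and NRF2 are known to bind, are shown as examples. They belong to GPX2, C1orf116 and DPYSL3, which rose, and GPC6, which fell. Each is written 5′ to 3′ on the strand of its gene, and capitals mark the core or its reverse complement.
GPX2 (chr14:64942696-64942995, minus strand): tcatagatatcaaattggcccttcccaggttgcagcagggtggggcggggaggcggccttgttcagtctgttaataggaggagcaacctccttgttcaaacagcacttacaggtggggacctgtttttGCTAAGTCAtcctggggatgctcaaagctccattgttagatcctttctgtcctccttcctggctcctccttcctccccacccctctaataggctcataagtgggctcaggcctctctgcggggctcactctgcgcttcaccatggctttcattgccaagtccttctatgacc
C1orf116 (chr1:207032707-207033006, minus strand): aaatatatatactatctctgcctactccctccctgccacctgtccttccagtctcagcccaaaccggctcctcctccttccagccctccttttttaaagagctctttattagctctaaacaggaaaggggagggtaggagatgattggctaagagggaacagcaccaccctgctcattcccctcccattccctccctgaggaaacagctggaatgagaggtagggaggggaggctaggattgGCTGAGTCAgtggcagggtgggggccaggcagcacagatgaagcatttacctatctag
DPYSL3 (chr5:147510019-147510318, minus strand): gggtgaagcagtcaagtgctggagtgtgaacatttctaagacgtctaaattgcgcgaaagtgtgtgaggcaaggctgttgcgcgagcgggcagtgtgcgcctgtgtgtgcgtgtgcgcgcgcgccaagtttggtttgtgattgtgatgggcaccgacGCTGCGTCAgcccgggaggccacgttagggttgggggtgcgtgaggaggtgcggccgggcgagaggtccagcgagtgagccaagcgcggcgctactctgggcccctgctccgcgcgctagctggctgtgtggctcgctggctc
GPC6 (chr13:93226557-93226856, plus strand): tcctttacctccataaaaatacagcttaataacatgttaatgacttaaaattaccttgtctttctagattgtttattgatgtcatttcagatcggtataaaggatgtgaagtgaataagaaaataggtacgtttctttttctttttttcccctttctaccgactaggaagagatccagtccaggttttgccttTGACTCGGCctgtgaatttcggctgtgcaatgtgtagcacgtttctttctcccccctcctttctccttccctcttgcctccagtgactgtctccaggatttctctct
The capitals are the reverse complement of the core in GPX2, C1orf116 and DPYSL3, and the core itself in GPC6. Counted from the start site, their first base lies at -122 in GPX2, -8 in C1orf116, -93 in DPYSL3 and -57 in GPC6. The windows of SPARC, NFE2L1 and CEACAM6 hold no match to these letters. Of the 112 genes named by rule, 79 had a window that was used here, and 17 of these have a match. The matches not shown include TRPC6, BCHE and BAX, which rose, and MFGE8 and VLDLR, which fell.

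The known targets of NFE2L1, the subunits of the proteasome, were described next. Of 33 subunits of the 20S core and the 19S regulatory particle, 31 were tested and none was called in either fit, where the paired fit called 4.89% of all genes. At the median their log2 fold change was -0.09, against 0.06 for all genes tested, and -0.11 and -0.12 in the 2 pairs. Of the 31, 19 were lower in both pairs and 2 higher in both, whereas of all genes tested 24.6% were lower and 38.4% higher in both. The lowest was PSMD14, the deubiquitinase of the 19S particle, at 19.1 and 7.94 FPKM in the control libraries and 12.2 and 5.61 in KO2 (log2 fold change -0.52, paired limma adjusted p 0.099). It lies on chromosome 2. The highest was PSMB2, a subunit of the catalytic rings, at 25.2 and 9.75 against 26.02 and 11.6 (0.14). The control and KO2 libraries of both genes overlapped.

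The next lists are small, so few or no calls say little, as the paired fit called 4.89% of all genes. The accessory genes of the proteasome (immunoproteasome subunits, activators and assembly chaperones) gave no call among 15 tested, with a median of 0.04. Their extremes were PSME4, the PA200 activator, at -0.27, and PSME1, a subunit of the PA28 activator, at 0.26. The genes that process NFE2L1 gave none among 12 tested, with a median of -0.02. VCP was at 143 and 78.2 FPKM in the control libraries and 123 and 66.8 in KO2, and DDI2 at 2.501 and 1.25 against 3.49 and 1.93. Of the related factors and their partners, NFE2L1 alone was called among 8. Further members of this and the next list are named for their known roles, after their values were seen. NFE2L2 (NRF2) was at 15.3 and 7.36 against 13.6 and 8.01, and the small MAF gene MAFK at 39.6 and 31.9 against 18.7 and 25.1 (paired limma adjusted p 0.106). NFE2L3, the closest relative of NFE2L1, was at 9.59 and 26.2 against 8.82 and 11.8 (paired limma adjusted p 0.198).

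Of 29 NRF2 targets tested, GPX2 was called higher and AKR1B1 lower in the paired fit, which called 4.89% of all genes. The median was 0.09 (-0.07 and 0.37 in the 2 pairs). AKR1B1, the aldose reductase, was at 416 and 175 FPKM in the control libraries and 217 and 103 in KO2 (log2 fold change -0.85, paired limma adjusted p 0.0426), and its control and KO2 libraries overlapped. NQO1, a quinone reductase, was at 407 and 161 against 418 and 213. HMOX1, the haem oxygenase, was at 147 and 47.1 against 47.1 and 42.5, and passed in neither fit (paired limma adjusted p 0.237). The list of ferroptosis genes gave no call among 12 tested, with a median of -0.06 (-0.11 and 0.10 in the 2 pairs).

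The lists of stress responses had calls at about the 4.89% of all genes in the paired fit. Of 13 heat shock chaperones (median 0.23, with 0.36 and -0.02 in the 2 pairs) and 12 chaperones and sensors of the endoplasmic reticulum (median -0.18, with 0.01 and -0.27), none was called. Of 14 ATF4 targets 1 was called, VLDLR, a lipoprotein receptor, which fell from 6.75 and 9.15 FPKM to 2.13 and 3.50 (paired limma adjusted p 0.000443). Of 15 genes of the p53 pathway 1 was called, the apoptosis effector BAX, which rose from 41.7 and 26.3 to 60.2 and 43.2 (paired limma adjusted p 0.0373). None of 21 cell cycle genes, 18 autophagy genes, 17 targets of SREBP2 and 13 mitochondrially encoded genes was called.

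Of 17 tested keratins and junction genes of epithelia, 6 were called higher and none lower in the paired fit, where 2.73% of all genes were called higher. Without pairing 1 of the 17 was called. All the lists were drawn up with earlier results of these data known, so these counts are no independent evidence. The median was 0.50 (0.58 and 0.66 in the 2 pairs). KRT18 was at 194 and 147 FPKM in the control libraries and 586 and 419 in KO2 (log2 fold change 1.55, paired limma adjusted p 0.000883). Its partner KRT8 was at 285 and 133 against 703 and 439 (log2 fold change 1.51, paired limma adjusted p 0.0029). Both lie on chromosome 12 and have many pseudogenes, so their counts are uncertain. EPCAM, an epithelial adhesion molecule, was at 1.25 and 2.19 against 3.44 and 6.92, although it lies on chromosome 2. The others called were KRT19 (above), CLDN4, a tight junction claudin, and PKP2, a desmosomal plakophilin, the last 2 named here to complete the count. Without the members on chromosomes 2 and 12, 2 of 10 were called higher and the median was 0.37.

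Of 12 genes of lung and airway lineage tested, 5 were called higher and none lower in the paired fit, where 2.73% of all genes were called higher, and 1 was called without pairing. The median was 0.89 (0.34 and 1.15 in the 2 pairs). The counts of this list are no independent evidence either, since it was drawn up in the same way. FOXA1, a pioneer factor of endoderm, was at 1.62 and 0.93 FPKM in the control libraries and 3.87 and 3.86 in KO2 (paired limma adjusted p 0.0029). SOX9, named to complete the count, was called too, beside SOX2 and MUC5AC. Without chromosomes 2 and 12, 4 of 11 were called higher, with a median of 0.79. Of 9 genes of the mesenchymal state, SPARC and FN1 were called higher. FN1, fibronectin, was at 17.1 and 32.2 against 25.2 and 80.2 (paired limma adjusted p 0.0424), and its control and KO2 libraries overlapped.

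Integrins, laminins and collagens had calls both ways. In the paired fit 2 of 20 tested were called higher and 2 lower, where 2.73% and 2.16% of all genes were. The median was -0.22 (0.01 and -0.37 in the 2 pairs). ITGB4, the integrin of hemidesmosomes, went from 16.6 and 45.1 FPKM to 66.0 and 151 (log2 fold change 1.83, paired limma adjusted p 0.000251). LAMA3 went from 11.3 and 20.1 to 4.26 and 5.75 (-1.44), while LAMB3, which joins it in laminin 332, went from 11.2 and 11.97 to 17.99 and 37.6 (1.11). ITGAV, on chromosome 2, was also lower.

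Genes of neurites and synapses had calls both ways as well. Of 16 tested, 3 were called higher and 6 lower in the paired fit, where 2.73% and 2.16% of all genes were. The median was -0.35 (-0.24 and -0.48 in the 2 pairs). This list was drawn up with earlier results of these data known, and NPTX1, CDH4 and DPYSL3 had already been seen, so that its counts are no independent evidence. Beside CNTN1 and DPYSL3, SYT1, a synaptic vesicle calcium sensor on chromosome 12, was higher. Beside NPTX1 and CDH4, the other members called lower were NRP2, L1CAM, NPTXR and SNAP25, which like SYT1 are named to complete the count. NPTXR, the receptor of the NPTX1 family, was at 8.38 and 16.6 FPKM against 3.29 and 5.33, and SNAP25, a vesicle fusion protein, at 7.50 and 4.01 against 1.55 and 0.73.

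Of 8 complement genes tested, 2 were called higher and 2 lower in the paired fit and none without pairing. Over all genes the paired fit called 2.73% higher and 2.16% lower. C1R and C1S, the neighbouring proteases of the first component, were lower although they lie on chromosome 12. C1S was at 21.5 and 37.5 FPKM in the control libraries and 6.12 and 9.32 in KO2 (log2 fold change -1.78, paired limma adjusted p 0.000281), and C1R at 8.31 and 12.9 against 2.56 and 3.61 (log2 fold change -1.49, paired limma adjusted p 0.000266). They and P3H3, GALNT6 and TESC, 3 genes named after their values were seen, are the 5 genes of chromosome 12 called lower. C5, the source of a chemotactic fragment, was among those called higher and is named after its values were seen.

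The signalling lists were read in the paired fit, which called 2.73% of all genes higher and 2.16% lower. Without pairing none of their members was called. Of 13 EGFR ligands and feedback genes, 4 were called higher (the ligand TGFA and the feedback inhibitors SPRY2, SPRY4 and DUSP6) and DUSP5 lower. The median of this list was 0.41, but 0.46 in the first pair and -0.15 in the R2 pair. The control and KO2 libraries of TGFA overlapped, and SPRY4 is named to complete the count. Without chromosomes 2 and 12 these counts were 2 and 1 of 11, with a median of 0.19. Of 13 genes of the TGF-beta response, 3 were called lower, TGFBI and TGFB1 among them, and the receptor TGFBR2 was called higher. TGFBI, a secreted matrix protein, was at 403 and 464 FPKM in the control libraries and 232 and 199 in KO2 (log2 fold change -1.01, paired limma adjusted p 0.0431). Of 11 YAP targets, CYR61 was lower and ANKRD1 higher. Of 14 aldehyde dehydrogenases tested, ALDH3A1, ALDH1A3 and ALDH2 were called higher, and ALDH3A1 went from 204 and 175 to 445 and 390 (log2 fold change 1.13, paired limma adjusted p 0.00236).

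Other lists had 1 or 2 calls each in the paired fit, which called 2.73% of all genes higher and 2.16% lower. GLUL, the glutamine synthetase, rose from 0.80 and 0.31 FPKM to 2.497 and 1.81, and was the only gene besides CPS1 called among 10 tested genes of the urea cycle and nitrogen handling. HOXA3 and HOXB8 were higher among 17 HOX genes tested (median 0.29, with -0.05 and 0.63 in the 2 pairs). In the Wnt list of 16 genes tested, the receptor FZD7 was lower and the co-receptor LRP5 higher, although the libraries of LRP5 overlapped between the lines. MAGEA6, a cancer-testis gene with near-identical copies on the X chromosome, had no read in either control library and an FPKM of 1.84 and 1.42 in KO2. No gene was called among 10 genes of antigen presentation and 4 metallothionein genes tested.

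**Figure D4:**
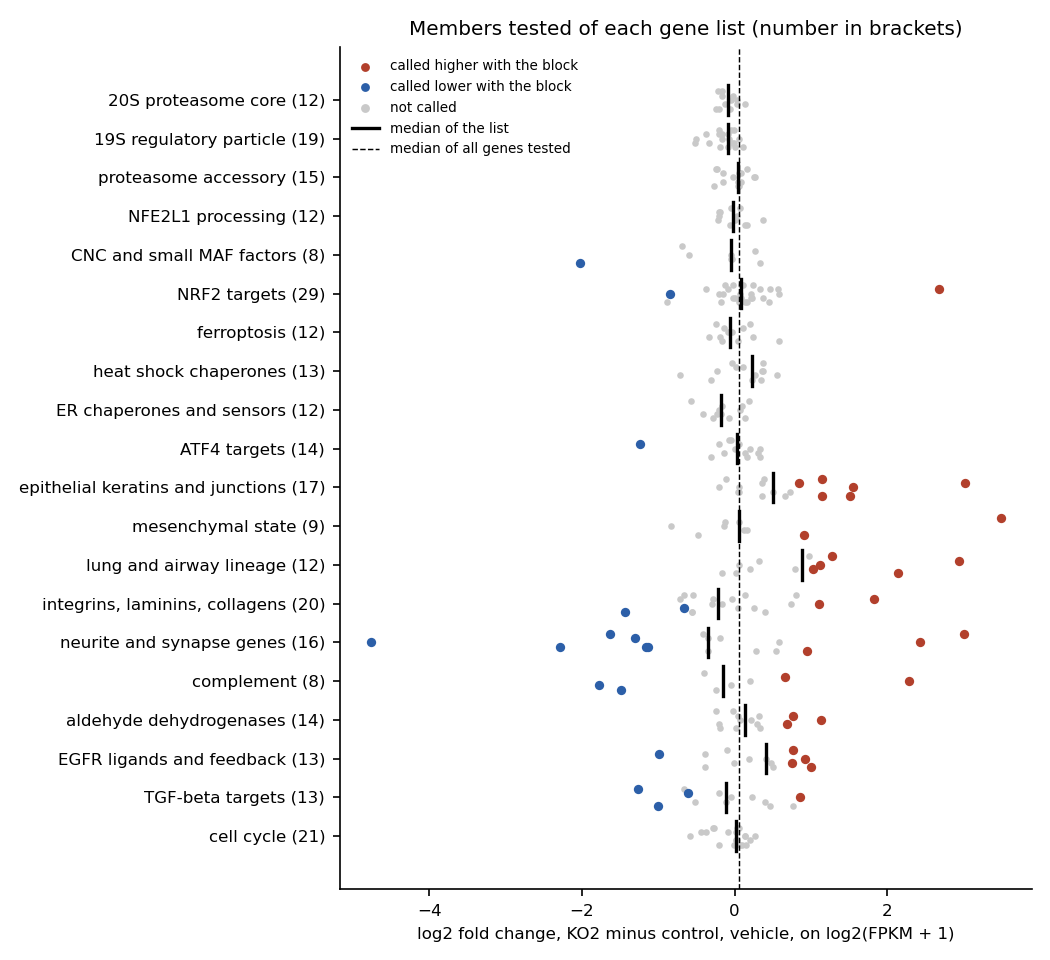
Log2 fold change of KO2 against control in vehicle for the tested members of 20 gene lists; colours mark genes called in the paired fit, and black bars the list medians. The 20S and 19S proteasome lists both have a median of -0.09, against 0.06 for all genes, and no called member. The paired fit called 4.89% of all genes. The epithelial and the lung and airway lists have medians of 0.50 and 0.89.

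KO2 was then set against KO1 in vehicle, to see where the knockout lines differ. This comparison uses no control library. Its median log2 fold change was -0.43 on chromosome 18, 0.25 on chromosome 15 and 0.23 on chromosome 19. On the other autosomes and chromosome X it lay between -0.01 and 0.14. KO1 differed from control in vehicle by medians of 0.47, -0.24 and -0.11 on chromosomes 18, 15 and 19. Without pairing limma called 8 genes (0.0656%), and with pairing 303 (2.48%). Of the 28 genes called against control, 4 were among the 8: CES1, SPARC, UGT1A9 and PLCXD3, all farther from control in KO2. CES1 was at 0 and 0.35 FPKM in the KO1 libraries and SPARC at 0.55 and 0.52, beside 17.1 and 37.2 and 26.6 and 29.9 in KO2. SPARC exceeded KO1 by 4.25 on the log2 scale and CES1 by 4.501 (limma adjusted p 0.000103 and 0.00375).

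In the paired fit 110 of the 596 genes called against control also differed between the knockout lines, and in 95 of them KO2 lay farther from control. SMOC1 was at 9.19 and 13.1 FPKM in KO1, among the control values of 7.68 and 12.1, and KO2 was lower than KO1 by 2.67 (paired limma adjusted p 4.98e-05). STC1 was at 7.71 and 5.43 in KO1 against 1.48 and 1.31 in KO2. LINC01468 was higher in KO1 than in KO2, at 27.4 and 24.8 against 6.27 and 7.28. For other genes the 2 lines lay close: KRT19 was at 153 and 75.5 in KO1, EMB at 4.62 and 8.76 and BCHE at 2.43 and 3.67. Both lines were compared with the same control libraries, so their differences from control are not independent. NFE2L1 was at 8.45 and 14.8 in KO1, below KO2 at 18.6 and 33.6 (paired limma adjusted p 0.011).

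The KO2 difference was also read in the 4 bortezomib libraries. These come from the same lines, so they are no independent replicates of the knockout. Without pairing limma called 8 genes there (0.0656%) and with pairing 789 (6.47%). All 28 genes called in vehicle had the same direction with bortezomib, and 7 were called the same way, which is 25% of the calls in vehicle and 87.5% of those with bortezomib. Of the 596 genes of the paired fit, 578 kept the direction and 333 were called the same way. In 1 gene the call was the opposite way. Genes called in both treatments, either way, were 56.0% of the calls in vehicle and 42.3% of those with bortezomib. How many of all genes tested kept their direction was not counted.

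CPS1 differed by -4.15 on the log2 scale with bortezomib, against -5.19 in vehicle, and SPARC by 3.05 against 3.48. SOX2 and ANXA13 differed by 0.55 and 0.63, against 2.13 and 1.98 in vehicle, and passed in neither fit with bortezomib (paired limma adjusted p 0.163 and 0.0739). IL11 differed by 0.03 against -2.21. A test of the difference between the treatments called 0 genes in limma in either fit, with 66 genes at an unadjusted p under 0.05 without pairing and 811 with it. In voom on recovered reads 0 were called without pairing and 4 with it. These smaller values with bortezomib are therefore not shown to differ from those in vehicle.

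**Figure D5:**
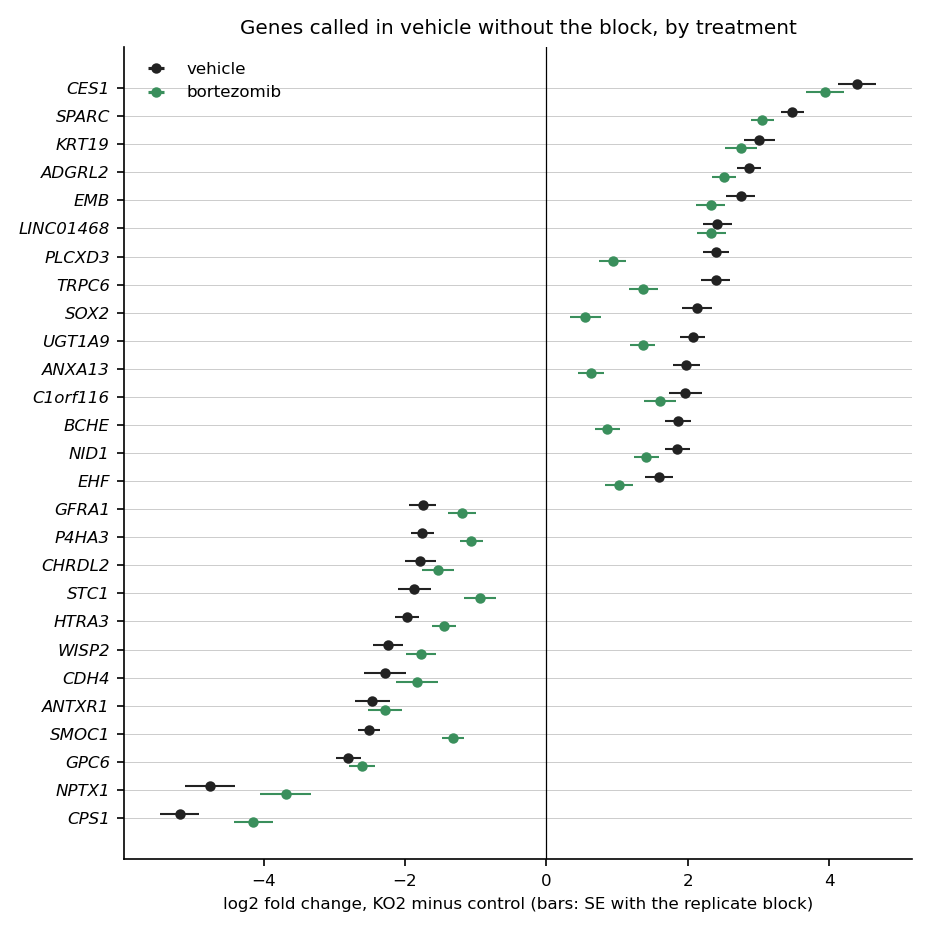
Log2 fold change of KO2 against control in vehicle (black) and bortezomib (green) for 27 of the 28 genes called in vehicle in both fits; bars are the SE of the paired fit. All points keep their side of 0, and SOX2 lies at 2.13 in vehicle and 0.55 in bortezomib.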

How the data were processed

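RNA was sequenced from 12 libraries, 2 in each of 6 groups. Per the submitters' processing notes CASAVA, STAR 2.5, HTSeq 0.6.1 and DESeq2 were used with hg19. The roles of these tools and the strand setting are not given in the sources used here. The authors deposited FPKM for 58676 genes. All gene IDs of the deposited table are in GENCODE release 29 (GRCh38) and 95.2% have the same position there, so its coordinates are those of GRCh38 and not of hg19. FPKM multiplied by gene length gave whole reads for 100% of values (tolerance 0.01 reads), and so the depth. Intervals on shares of reads were left out, since reads without molecular identifiers are not independent molecules.

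The main model was limma 3.58.1 (R 4.3.3) on log2(FPKM + 1) with a mean-variance trend, over all 12 libraries with 1 mean per group. Fold changes are on that scale, on which low genes appear to change less than they do. The paired fit adds the replicate, with unnumbered libraries on the level of R1. Same-numbered libraries deviated together (r from 0.70 to 0.89 over 15 pairs of groups, median 0.81), so both fits are given. The 2 libraries against 2 allow no exact permutation p under 0.333. The genes named are NFE2L1, up to 15 per direction called without pairing with libraries that did not overlap, up to 12 per direction called with pairing at 5 FPKM or more in 1 group, and up to 4 called members of each of 41 gene lists (626 genes, 475 tested), or the lowest and highest member where none was called. A few further members are named to complete a count, chosen after their values were seen. The members and lists were chosen with earlier results of these data known. Alternatives were the pseudocount, the filter, scaling, voom on recovered reads and leaving out libraries. Some called members of the lists are not reported here.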

Additional observations from a re-analysis of the deposited data

Results flagged for a closer look

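For 4 of the 28 genes called without pairing, the difference from control was not the same in the 2 knockout lines by the test of KO2 against KO1 in vehicle. CES1 was 4.501 higher in KO2 than in KO1 on the log2 scale (limma adjusted p 0.00375). SPARC was 4.25 higher (limma adjusted p 0.000103). UGT1A9 was 2.62 higher (limma adjusted p 0.00375), with the doubt about shared exons given above. PLCXD3 was 2.01 higher (limma adjusted p 0.0251). In KO1 all 4 were at 0.96 FPKM or less in each vehicle library.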

How the results depend on the processing

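The count of genes called in vehicle against control (28) was 9 with a pseudocount of 0.1, 52 without the filter on low FPKM, 88 in the 4 libraries alone and 16 after quantile normalization. The replicate block gave 596, the block by title suffix 599, and voom with the block 1059. With the block and a further change, chosen after seeing the data, it was 568 (pseudocount 0.1), 537 (FPKM rescaled), 523 (quantile normalization), 602 (without mitochondrially encoded genes) and 574 (6 vehicle libraries). Leaving out 1 library gave 2 to 6 without the block, the fewest without control R2, and with it 154 (without KO2 R2), 274 (without control R2), 282 (without KO2 R1) and 721 (without the unnumbered control). Of the 27 genes named by rule among the 28, all kept their direction in every setting run, and all were called in every setting with the block. KO2 against KO1 (8) gave 5 with a pseudocount of 0.1, 42 without the filter, 366 and 303 with the 2 replicate blocks, 0 in the 4 libraries alone (limma), 2 with voom, 657 with voom and the block, and 1 to 5 with 1 library left out. KO2 against control with bortezomib (8) gave 66 without the filter, 586 and 789 with the 2 blocks, 0 in the 4 libraries alone, 5 after quantile normalization, 5 without mitochondrially encoded genes, 1287 with voom and the block, and 0 to 2 with 1 library left out. The test of the difference between treatments (0) gave 9 without the filter and 4 with voom and the block. Leaving out 1 library moved the median of all genes to between -0.08 and 0.25. Relative to the other chromosomes, chromosome 12 stayed between 0.30 and 0.39 and chromosome 2 between -0.35 and -0.22 over 24 settings.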
